A study of Camelus dromedarius with 10 samples.

Results

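Chemoattractant receptors let leukocytes, microglia and some vascular cells sense chemokines, complement fragments, formyl peptides and lipid mediators, and the purinergic P2Y receptors sense nucleotides released by active or damaged cells. A list of 36 such receptors was examined in the supraoptic nucleus (SON) of the dromedary camel, the hypothalamic nucleus of magnocellular neurones (MCNs) that make vasopressin and oxytocin. A receptor was included if a row of the count table had an Ensembl ID that the study's supplementary tables pair with its symbol. This left 11 receptors out of the 22444 gene IDs counted. They are the 5 atypical chemokine receptors (ACKR1, ACKR2, ACKR3, ACKR4 and CCRL2), the CC chemokine receptors CCR2, CCR6 and CCR7, the CXC chemokine receptor CXCR4, the complement receptor C5AR1 and the P2Y-like receptor P2RY10. The other 25 receptors could not be matched to an ID with the shortened tables used here and were not analysed: CCR1, CCR3, CCR4, CCR8, CCR9, CCR10, XCR1, CXCR1, CXCR2, CXCR3, CXCR5, CXCR6, C3AR1, FPR1, FPR2, CMKLR1, PTAFR, GPR34, P2RY1, P2RY2, P2RY4, P2RY6, P2RY8, P2RY13 and P2RY14.

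All animals were male camels aged 4 to 5 years, and the question was how loss of water changes expression in the SON. One group drank freely (control, n = 5) and the other had no water for 20 days (WD, n = 5). RNA came from punches of the rostral SON of 1 side of each animal, so every cell type inside the punch contributed. Libraries are named by group and by the number in their label: CON2, CON3, CON4, CON5 and CON13, and WD6, WD7, WD8, WD9 and WD15.

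In brain, microglia and perivascular macrophages are the resident cells best known for complement and chemokine receptors, and endothelium carries several of the atypical ones. Classical chemokine receptors signal through G proteins and direct cell movement. Atypical receptors bind chemokines without that signalling and remove, transport or present them. A punch of whole tissue holds all of these cells, and a change in the number of cells of a type cannot be told apart from a change in RNA per cell.

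Each library had between 1665098 and 8126641 read pairs counted on genes, but 5 gene IDs took between 27.7% and 76.1% of them. That share was highest in CON13 (76.1%) and WD6 (73.8%). Levels are given as CPM after TMM normalization, that is, counts divided by a library size that TMM adjusts for the few genes that dominate a library, and 1 read pair was worth 1.20 CPM in CON13 and 0.475 CPM in WD6, against 0.0864 to 0.237 CPM in the other libraries. Low values in CON13 and WD6 therefore rest on very few read pairs. The MCN transcription factors SIM1 and OTP were counted in every library, whereas the neuropeptide gene GAL reached at most 0.625 CPM. The genes AVP and OXT were not paired with an ID and were not analysed here.

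All of these receptors were weakly expressed. Mean control levels ran from 0.207 CPM (P2RY10) to 6.86 CPM (ACKR3), below the median of 14.5 CPM over the 14432 genes with enough counts to be tested. By mean control CPM the order was ACKR3, ACKR1, ACKR2, C5AR1, CCR2, ACKR4, CCR7, CXCR4, CCR6, CCRL2 and P2RY10. In all 10 neighbouring pairs of this order the means differed by less than the larger of the SDs, so no step in it exceeded the spread between animals. CPM is not divided by gene length, so the order also reflects length. The places of CCR7 and CCR6 were set by CON13 alone, which held 97.6% and 75.8% of their summed control CPM. By median control CPM, CCR7 (0.115 CPM) had the lowest level of the 11 and CCR6 (0.586 CPM) lay under CCRL2 (1.03 CPM).

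**Figure D1:**
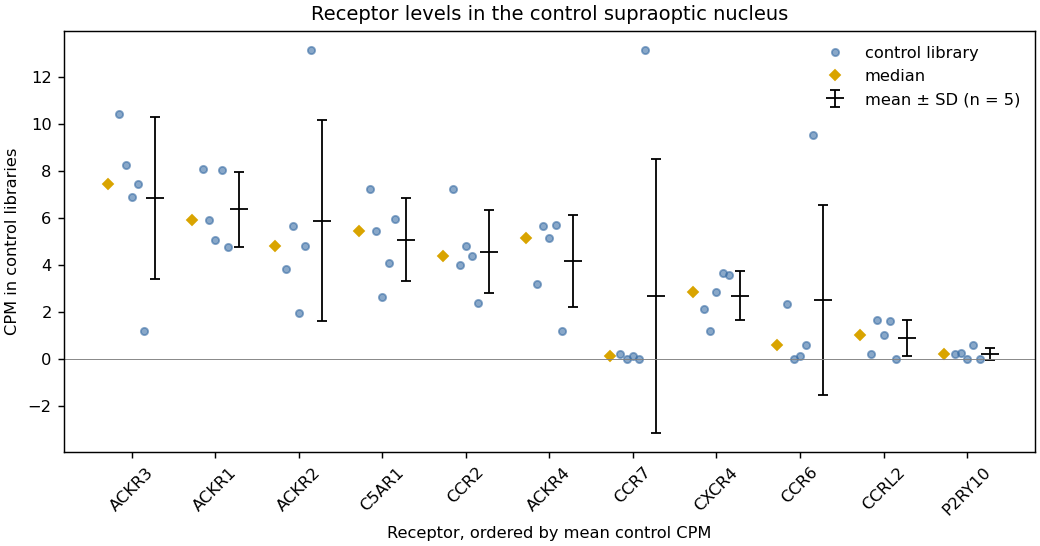
CPM of each receptor in the 5 control libraries (blue points), with the median (yellow diamonds) and the mean ± SD (black bars, n = 5), ordered by the mean. Levels of ACKR3 centre on 7.47 CPM, and single points at 13.2 CPM lift the means of ACKR2 and CCR7.

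The test of WD against control could be run on 7 of the 11 receptors (230 to 575 read pairs each over the 10 libraries), and none of the 7 passed it. Over all 14432 genes tested with edgeR's quasi-likelihood test, 0.499% passed the threshold of 0.05 on the Benjamini-Hochberg adjusted p, 0.270% as higher and 0.229% as lower in WD. DESeq2's Wald test called 1.27% of genes and no receptor either. Without adjustment, 2 receptors (ACKR1 and C5AR1) had an edgeR p under 0.05, as did 9.31% of all genes. These same 2 receptors carry a symbol only in a table that, as used here, is shortened to its smallest p-values. Their fold changes are therefore a description and nothing is read from this count.

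No receptor had all WD libraries above all control libraries, a pattern found in 1.34% of genes, or all below, found in 1.27%. Of the 7, 4 had a log2 fold change above 0, as did 51.9% of all genes. The 3 with a log2 fold change of at least 0.5, a size that 7.73% of genes reached, were C5AR1, ACKR1 and CXCR4. The median log2 fold change was 0.49 over the 7 and −0.01 over the 5 whose names do not come from the shortened table, against 0.02 over all genes tested.

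**Figure D2:**
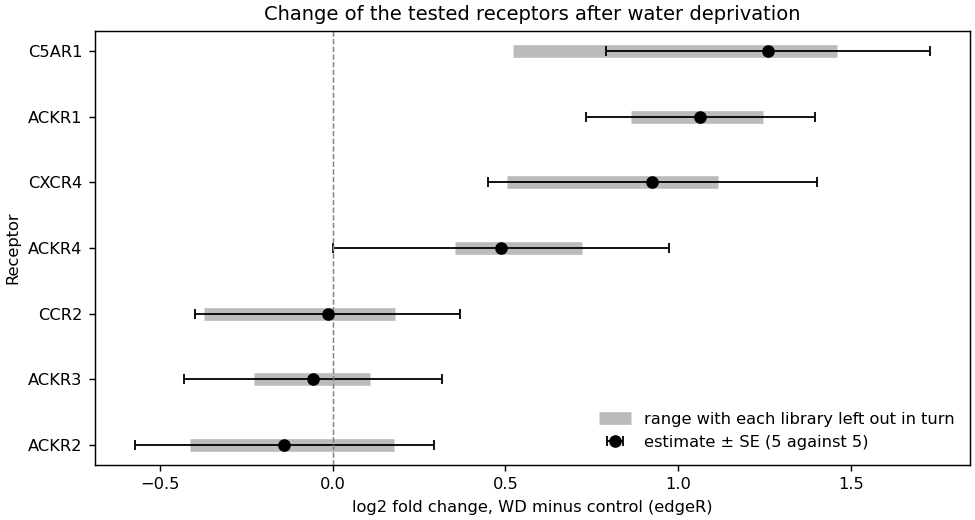
Log2 fold change (WD minus control, edgeR) of the 7 tested receptors, as points ± SE from 5 against 5 libraries, with grey bands for the range when each library is left out in turn. C5AR1, ACKR1, CXCR4 and ACKR4 stay above 0 in every band, whereas CCR2, ACKR3 and ACKR2 lie across 0.

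CXCR4, the signalling receptor for CXCL12, guides leukocytes and neural precursors. In control animals it was at 2.13 CPM in CON2, 1.18 in CON3, 2.87 in CON4, 3.66 in CON5 and 3.59 in CON13. In WD animals it was at 3.80 CPM in WD6, 6.25 in WD7, 9.53 in WD8, 2.77 in WD9 and 2.29 in WD15. WD7 and WD8 were well above every control, WD6 was just above the highest control, and WD9 and WD15 lay within the control range. The log2 fold change was 0.93 (SE 0.476), with an edgeR adjusted p of 0.589. Without WD8 it was 0.50. Of the libraries richest in microglial markers, WD8 had the highest CXCR4 level of all 10 and WD15 the lowest of the WD group. The part of microglia in these values was not tested.

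CCR2 is the receptor for CCL2 and is best known from monocytes. It was at 7.26 CPM in CON2, 4.02 in CON3, 4.82 in CON4, 4.39 in CON5 and 2.39 in CON13, against 4.27 CPM in WD6, 3.19 in WD7, 8.60 in WD8, 2.85 in WD9 and 5.00 in WD15. The groups overlapped over most of their range. The log2 fold change was −0.01 (SE 0.383, edgeR adjusted p = 0.995), and this error leaves room for changes of either sign.

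CCR7, the receptor for CCL19 and CCL21 on naive T cells and mature dendritic cells, had 32 read pairs in all and was not tested. Of its 13 control read pairs, 11 came from CON13, the library with the fewest read pairs counted on genes (13.2 CPM, exact Poisson 95% interval 6.57 to 23.5). The other control libraries had between 0 and 0.213 CPM, and the WD libraries had 1.42 CPM in WD6, 1.15 in WD7, 0.615 in WD8, 0.0864 in WD9 and 0.417 in WD15. CON13 was also highest in CCR6, the receptor for CCL20 (9.57 CPM, interval 4.13 to 18.9, from 8 read pairs). CCR6 lay between 0 and 2.35 CPM in the other controls and between 0.346 and 3.13 CPM in WD, with WD15 highest.

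P2RY10, a lymphocyte receptor for lysophosphatidylserine, had 20 read pairs in all, 9 of them in WD7 (1.15 CPM). It was at 0 in CON4, CON13 and WD6, where a count of 0 allows up to 0.344, 3.59 and 1.42 CPM (3 read pairs, counting error only). CCRL2, which binds chemerin and presents it to other cells, had 48 read pairs. It was at 0 in CON13, WD6 and WD15 and reached 1.66 CPM in CON3 and 1.69 CPM in WD8. Fitted without a filter on low counts, the log2 fold changes were −1.36 (SE 1.38) for CCR7, −0.24 (SE 1.03) for CCR6, −0.80 (SE 0.986) for CCRL2 and 0.80 (SE 1.17) for P2RY10. The edgeR adjusted p of these 4 receptors lay between 0.828 and 0.971.

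CON13 also stood out in lymphocyte and neutrophil markers, all of them low. The summed CPM of 12 T and natural killer cell markers (of 17 listed) was 92.1 in CON13, 14.2 to 49.9 in the other controls and 10.9 to 42.7 in WD. For 6 of 10 B cell markers it was 27.5 in CON13, 4.25 to 19.2 in the other controls and 3.46 to 12.3 in WD, and for 7 of 10 neutrophil markers it was 43.0, 4.02 to 21.8 and 4.32 to 17.6. It was likewise highest among controls in the summed CPM of the chemokine ligands (80.1 against 37.9 to 49.7) and of the red blood cell markers (14.3 against 2.18 to 8.11), lists also made mostly of genes with few read pairs. The T cell genes LCK, IL2RB and IL7R (log2 fold changes −0.20, −1.65 and −0.30), the B cell gene CD22 (−1.28, named through the shortened table) and the neutrophil genes CSF3R, LTF and MMP9 (−1.16, −0.74 and −0.27) led these lists in control and did not pass the test. The next B cell genes, PAX5 and POU2AF1, had too few read pairs to test. No marker of these lists was at 0 in every library. Whether these cells or the low number of read pairs counted in CON13 bear on its CCR7 and CCR6 counts was not tested.

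ACKR3 scavenges CXCL12, the ligand it shares with CXCR4. It was at 10.5 CPM in CON2, 8.28 in CON3, 6.88 in CON4 and 7.47 in CON5, and at 6.76 CPM in WD7, 8.60 in WD8, 6.83 in WD9 and 10.6 in WD15. CON13 (1.20 CPM) and WD6 (1.90 CPM) lay far under all of these, with 1 and 4 read pairs where the mean level of their groups' other libraries would give 6.92 and 17.3. Those are the libraries with the largest share of reads in dominant gene IDs. Whether that share bears on ACKR3 was not tested.

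Over all libraries the ACKR3 means were 6.86 ± 3.44 CPM in control and 6.94 ± 3.23 CPM in WD (SD, n = 5), with a log2 fold change of −0.06 (SE 0.374, edgeR adjusted p = 0.977). Without CON13 and WD6 they were 8.27 ± 1.57 and 8.20 ± 1.83 CPM (n = 4), and the log2 fold change was −0.03 with an SE of 0.243. The narrower spread left the estimate near 0.

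ACKR4, a scavenger of CCL19, CCL21 and CCL25, showed a gap of this kind in WD6. It was at 3.20 CPM in CON2, 5.68 in CON3, 5.16 in CON4, 5.71 in CON5 and 1.20 in CON13. The exact Poisson interval of CON13 (0.0303 to 6.66 CPM) covered the levels of the other controls. In WD, ACKR4 was at 8.16 CPM in WD7, 7.07 in WD8, 8.04 in WD9 and 7.29 in WD15, but no read pair was counted in WD6, which allows up to 1.42 CPM (3 read pairs). The mean of the other WD libraries would give 16.1 read pairs there. With all libraries the log2 fold change was 0.49 (SE 0.486, edgeR adjusted p = 0.825).

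Without CON13 and WD6, a choice made after the data were seen, every WD library was above every control in ACKR4 (3.20 to 5.71 CPM in control and 7.07 to 8.16 CPM in WD). The same order was found in 3.67% of all genes in those 8 libraries. The log2 fold change was then 0.60 (SE 0.260), and the edgeR adjusted p of 0.370 did not pass the threshold. In RefSeq's gene table of another camel assembly ACKR4 overlaps ACAD11, ACKR2 overlaps HIGD1A and CXCR4 overlaps a non-coding RNA gene, so read pairs of these genes may have been shared.

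ACKR2, which degrades inflammatory CC chemokines, went the other way in CON13. It was at 13.2 CPM there (11 read pairs, where the mean of the other controls would give 3.41), against 3.84 CPM in CON2, 5.68 in CON3, 1.95 in CON4 and 4.83 in CON5. In WD it was at 3.80 CPM in WD6, 5.61 in WD7, 5.68 in WD8, 4.15 in WD9 and 3.33 in WD15, all inside the control range. The log2 fold change was −0.14 (SE 0.434, edgeR adjusted p = 0.954), and it was 0.18 without CON13.

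ACKR1, the Duffy antigen receptor, binds many inflammatory chemokines on venular endothelium and red blood cells. It was at 8.11 CPM in CON2, 5.91 in CON3, 5.05 in CON4, 8.05 in CON5 and 4.78 in CON13. In WD it was at 13.8 CPM in WD6, 6.50 in WD7, 20.3 in WD8, 8.55 in WD9 and 20.4 in WD15. WD6, WD8, WD9 and WD15 were above every control, and WD7 lay inside the control range. The exact Poisson intervals of WD8 (17.0 to 24.0 CPM) and WD15 (16.6 to 24.9 CPM) also lay above those of all controls. The mean was 6.38 ± 1.61 CPM in control and 13.9 ± 6.45 CPM in WD (SD, n = 5). The log2 fold change was 1.06 (SE 0.331), and the edgeR adjusted p of 0.232 did not pass the threshold.

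The WD libraries with the most ACKR1 also had the most endothelial marker RNA. The summed CPM of 15 endothelial markers (of 21 listed, none at 0 in any library) was 401 to 591 in control, and 560 in WD6, 401 in WD7, 755 in WD8, 493 in WD9 and 725 in WD15. None of the 15 passed the test and their median log2 fold change was 0.19, or 0.16 without the 3 that are named only through the shortened table. The 3 with the highest control level were VWF (log2 fold change 0.17), the VEGF receptor FLT1 (0.62) and the apelin receptor APLNR (−0.14).

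As a percent of that sum, ACKR1 was 1.09 to 1.47% in control, and 2.46% in WD6, 1.62% in WD7, 2.69% in WD8, 1.74% in WD9 and 2.82% in WD15. Every WD library was above every control, as for 0.187% of all genes set against the same sum. The ratio was computed after the levels had been seen, for a receptor named through its small p, and is a description. Red blood cell markers were low (5 of 9 listed, summing to 2.18 to 14.3 CPM in control and 2.77 to 6.45 CPM in WD), and the haemoglobin gene HBB was at 1.15 to 8.37 CPM in control and 0 to 1.84 CPM in WD, too few read pairs to test. The others highest in control were GATA1 (log2 fold change 0.21, not past the threshold) and EPOR (0 to 1.20 CPM in control, not tested).

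C5AR1, the receptor for the complement fragment C5a on myeloid cells, had the largest log2 fold change of the 7, 1.26 (SE 0.468, edgeR adjusted p = 0.374). It was at 7.26 CPM in CON2, 5.44 in CON3, 2.64 in CON4, 4.10 in CON5 and 5.98 in CON13, and at 6.64 CPM in WD6, 5.36 in WD7, 10.1 in WD8, 5.96 in WD9 and 30.4 in WD15. WD15 alone held 52.0% of the summed WD level, and its exact Poisson interval (25.7 to 35.8 CPM) lay above those of all other libraries. WD8 was also above every control, and WD6, WD7 and WD9 were within the control range. Without WD15 the log2 fold change was 0.52. C5AR2, the other C5a receptor and a neighbour of C5AR1, had too few read pairs to test and was also highest in WD15 (4.79 CPM), a gene looked at after its values were seen.

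WD15 was the library richest in microglial RNA. The summed CPM of 22 microglia and macrophage markers (of 24 listed, none at 0 in any library) was 684 to 998 in control, and 1384 in WD6, 942 in WD7, 1515 in WD8, 879 in WD9 and 2829 in WD15. All 22 had a log2 fold change above 0 (51.9% of all genes), with a median of 0.90, and 1 passed the test as higher (0.270% of all genes): C1QA, a chain of complement C1q (log2 fold change 1.63, edgeR adjusted p = 0.0232). The 3 highest in control were the growth factor receptor CSF1R (log2 fold change 0.62, edgeR adjusted p = 0.468) and the other C1q chains C1QB (log2 fold change 1.35, edgeR adjusted p = 0.0707) and C1QC (log2 fold change 1.48, edgeR adjusted p = 0.0683), and all 3 C1q chains are named through the shortened table. The median was 0.83 for those not named through the shortened table, which names 11 of the 22. With DESeq2 the paper called C1QB higher in WD, and its qRT-PCR found the rise in both rostral and caudal SON. CD163, a marker of perivascular macrophages and the only one of 4 with an ID, is named through the shortened table. It was at 47.8 to 144 CPM in control, and at 263 CPM in WD6, 85.3 in WD7, 152 in WD8, 135 in WD9 and 466 in WD15, so that WD7 and WD9 lay within the control range.

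C5AR1 was 0.359 to 0.874% of the microglial sum in control and 0.480 to 1.08% in WD, with WD15 highest, and the groups overlapped. Since C5AR1 and 11 of the 22 markers are named through the shortened table, this ratio is a description from which nothing is read. ACKR1 also overlapped on this scale, at 0.687 to 1.16% in control and 0.690 to 1.34% in WD. Of all genes, 0.0277% had every WD library above every control when set against this sum.

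**Figure D3:**
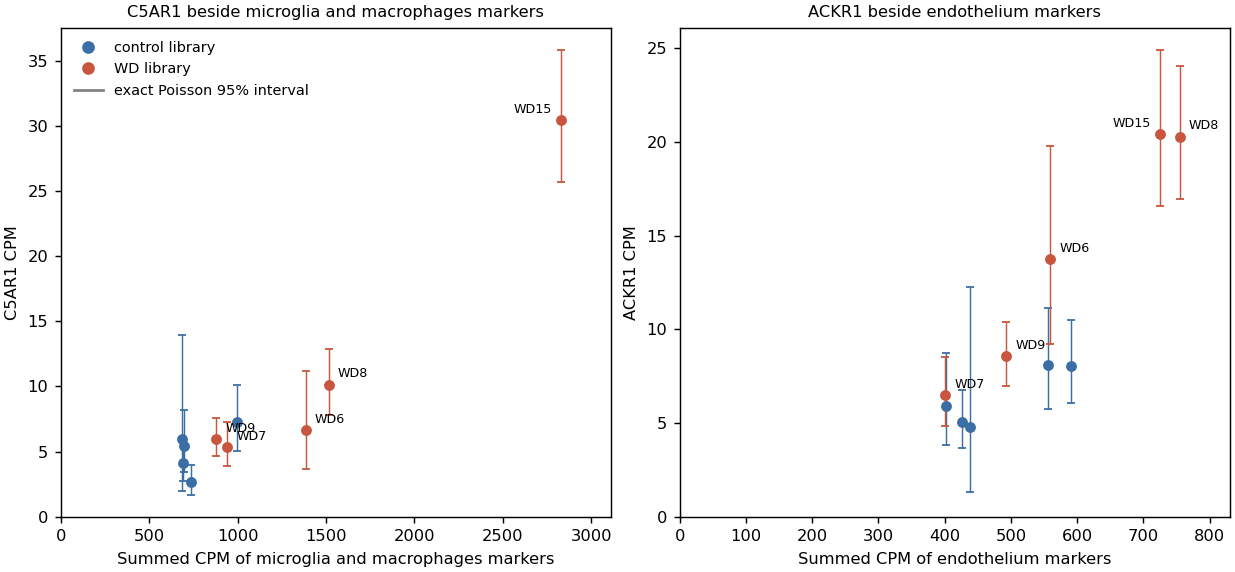
C5AR1 against the summed CPM of microglia and macrophage markers (left) and ACKR1 against the summed CPM of endothelial markers (right), 1 point per library with its exact Poisson 95% interval. WD15 stands alone at 2829 CPM of microglial markers and 30.4 CPM of C5AR1. On the right, WD8 and WD15 have both the highest marker sums and the highest ACKR1 levels, and WD7 lies next to control points with overlapping intervals.

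The ligands of these receptors were examined as a fixed list. Of 48 chemokine genes 22 had an ID and 4 had enough counts to be tested, and none of the 4 passed. CXCL12, the ligand of CXCR4 and ACKR3, had the highest control mean, at 12.3 ± 4.72 CPM in control and 8.71 ± 1.48 CPM in WD (SD, n = 5), with a log2 fold change of −0.45 (SE 0.305, edgeR adjusted p = 0.699). CCL8, a ligand of CCR2 and of ACKR1 and ACKR2, was at 7.34 to 10.0 CPM in control. In WD it was at 6.17 CPM in WD6, 6.76 in WD7, 21.2 in WD8, 8.04 in WD9 and 40.8 in WD15. WD8 and WD15 were also the libraries highest in C5AR1 and ACKR1. The log2 fold change of CCL8 was 0.91 (SE 0.436, edgeR adjusted p = 0.546). The neuronal chemokine CX3CL1 had a log2 fold change of −0.20.

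Of 22 genes for complement, lipid and other attractants and their enzymes, 14 had an ID, 13 were tested and none passed, with a median log2 fold change of 0.36 and 10 of the 13 above 0 (51.9% of all genes). The 3 highest in control were APP (log2 fold change −0.05), complement C3 and the cytokine MIF (0.40). C3, the source of the ligand of C3AR1, was at 422 ± 212 CPM in control and 881 ± 492 CPM in WD (SD, n = 5), with a log2 fold change of 1.06 (SE 0.362, edgeR adjusted p = 0.314). Of 22 genes that release, break down or sense nucleotides and adenosine, 8 had an ID, 7 were tested and none passed, with a median log2 fold change of −0.11 (2 of the 8 are named only through the shortened table). The ATP-degrading ENTPD2 (−0.34), adenosine deaminase ADA (−0.11) and NT5E, which makes adenosine (−0.11), were the highest of these.

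Among 25 genes of leukocyte receptor signalling, 19 had an ID and 18 were tested. None passed, 16 had a log2 fold change above 0 (51.9% of all genes) and the median was 0.54, or 0.48 without the 3 that are named only through the shortened table. The receptor kinases GRK2 (0.13), GRK3 (0.11) and GRK5 (−0.09), which are used by many cell types, were the highest and lay near 0. Of 14 other leukocyte receptors 11 had an ID, and all 5 that were tested had a log2 fold change above 0 (51.9% of all genes) without passing, with a median of 0.94 (1.18 without the 2 named through the shortened table). The highest in control were the microglial receptors CX3CR1 (22.6 CPM in control and 45.2 CPM in WD, log2 fold change 0.94, edgeR adjusted p = 0.242) and P2RY12 (12.5 and 20.5 CPM, log2 fold change 0.70), both named through the shortened table, and GPR84 (log2 fold change 0.42). CX3CR1 and P2RY12 are also on the microglial list and were highest in WD15 (89.2 and 28.5 CPM), though P2RY12 was nearly as high in WD8 (27.3 CPM).

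**Figure D4:**
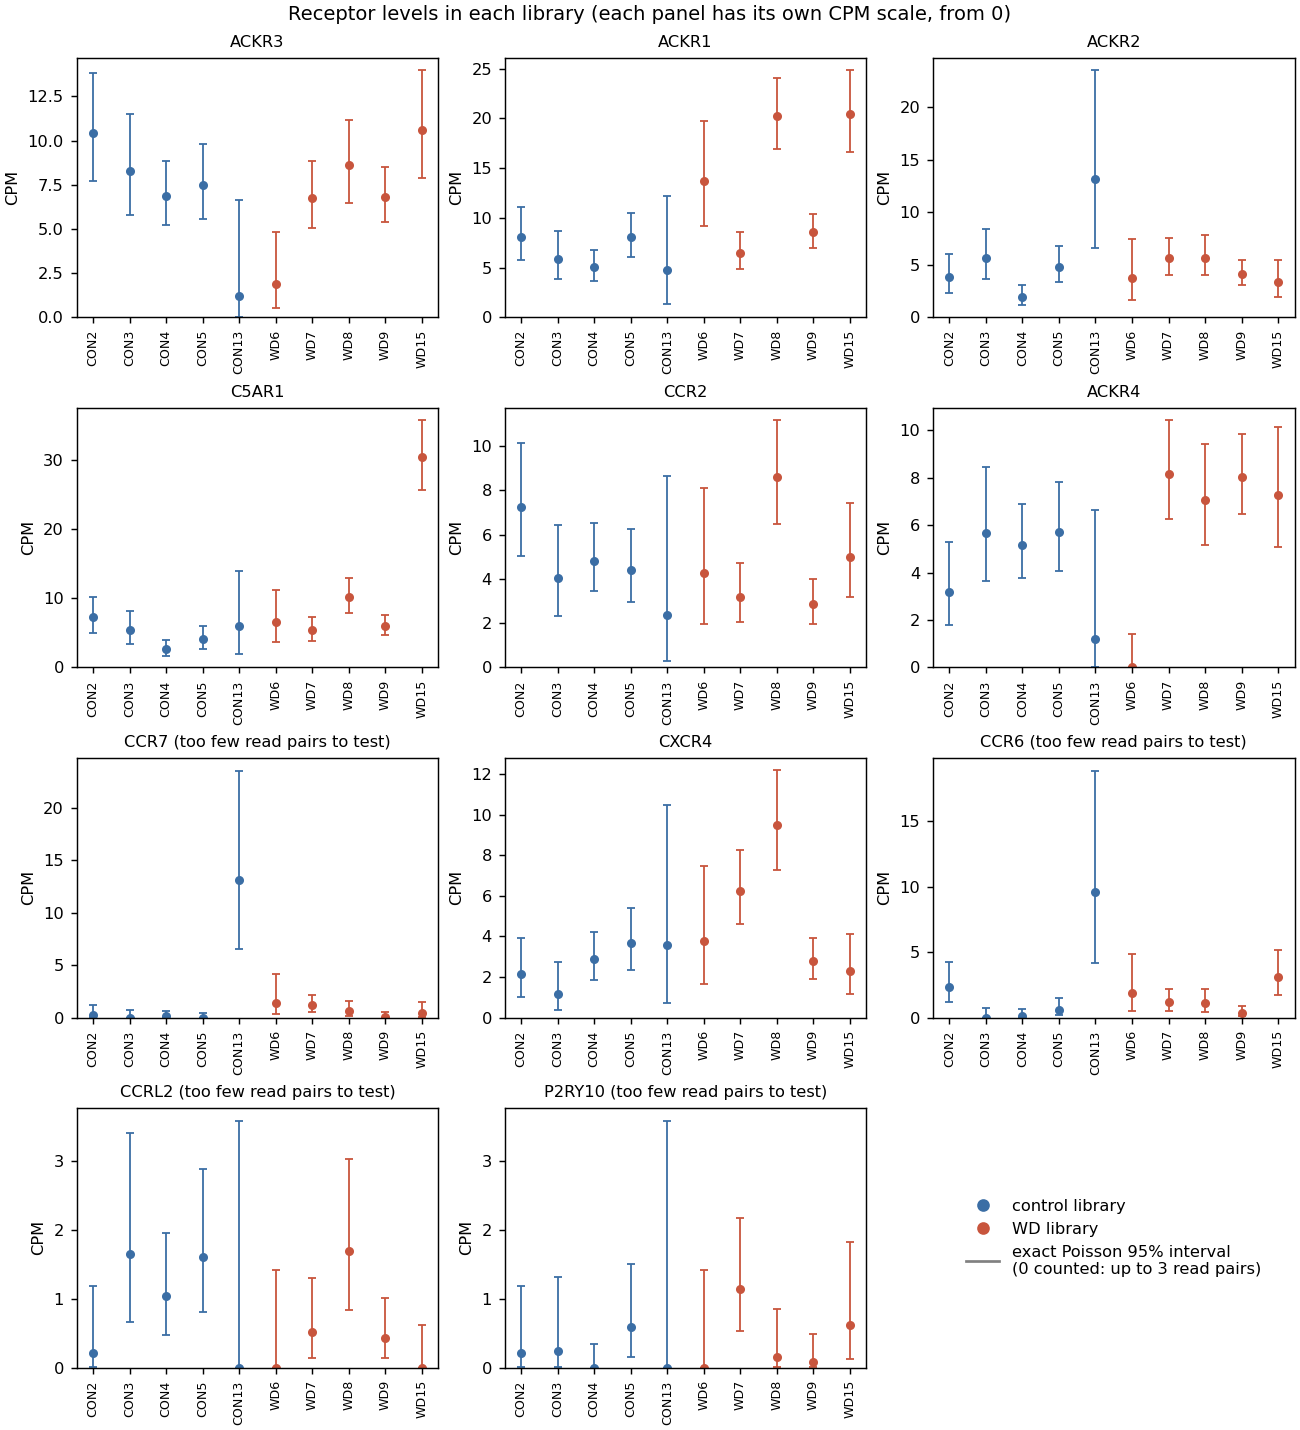
CPM of the 11 receptors in each library, with exact Poisson 95% intervals from the read pairs behind each value (for a count of 0, a bar up to the level of 3 read pairs). Each panel has its own scale from 0. C5AR1 stands out in WD15, CCR7 and CCR6 in CON13, and ACKR3 and ACKR4 are lowest in CON13 and WD6, where the intervals of CON13 are the widest.

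Of the remaining tissue markers, 6 of 10 for pericytes, smooth muscle and fibroblasts summed to 274 to 563 CPM in control and 145 to 321 CPM in WD, and COL1A1, a fibrillar collagen, was lower in WD (log2 fold change −1.04, edgeR adjusted p = 0.0239). In the paper, COL1A1 was among the few genes whose change qRT-PCR did not bear out in the rostral SON. The muscle genes MYH11 (−1.12) and ACTA2 (−0.97) were the highest of this list in control and did not pass. They and 1 more of the 6 are named only through the shortened table, so nothing is read from the gap between these sums. For 3 of 7 astrocyte markers (ALDOC, GJA1 and ALDH1L1, log2 fold changes 0.59, 0.50 and 0.55) the sums were 298 to 416 and 475 to 624 CPM, with no single gene past the threshold, and all 3 are named only through the table shortened to its smallest p-values, so nothing is read from the gap between these sums. For 7 of 11 oligodendrocyte markers they were 156 to 340 and 135 to 258 CPM, also with none (1 of the 7 is named only through the shortened table), and MYRF (−0.26), SOX10 (−0.08) and PDGFRA (−0.12) were the highest. The part of these cells in the receptor values was not tested. Of 8 MCN genes, 5 had an ID, 4 were tested and 1 passed as higher (0.270% of all genes). This was the opioid precursor PDYN, at 162 CPM in control and 618 CPM in WD (log2 fold change 1.93, edgeR adjusted p = 3.0e-04). The other 3 that were tested had log2 fold changes below 0 and did not pass: −0.04 for SIM1, −0.58 for OTP and −0.63 for the neurofilament gene NEFL, which is named through the shortened table.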

How the data were processed

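Stranded, paired-end libraries without ribosomal RNA were made from the SON of 5 control camels and 5 WD camels. The authors used STAR to align trimmed reads to the assembly Camdro2 and counted read pairs per gene with FeatureCounts, and they deposited raw counts for 22444 gene IDs without pooling. The strand setting of the counting and the annotation release are not given in the sources used here. A normalized table, also deposited, was not used. Symbols came from the study's supplementary tables, which are shortened here and pair 4316 IDs. The members and gene lists were chosen with earlier results of these data known.

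Groups came from the labels. The counts were tested with edgeR 4.0.16 in R 4.3.3 (quasi-likelihood F test, robust fit, TMM, filterByExpr by group, no covariate), and p-values of the 14432 tested genes were adjusted by Benjamini-Hochberg. The SE is the size of the log2 fold change divided by the square root of F. DESeq2 1.42.0 was an alternative. Exact Poisson 95% intervals came from scipy 1.17.1 and figures from matplotlib 3.10.9, in Python 3.11.15. Intervals and the limit of 3 read pairs cover counting error only. For a count of 0, that limit is lower than the upper end of the exact Poisson 95% interval (1.42 against 1.75 CPM for ACKR4 in WD6). The test was checked on simulated counts. No 2 libraries of the same group agreed within sampling noise, and each is 1 animal. Named genes are all receptors with an ID and, of each list, the genes past the threshold and the 3 with the highest control mean. SIM1, OTP and GAL are also named to check the tissue, and C5AR2 and genes that overlap receptors were chosen after values were seen. Alternatives were DESeq2's test, DESeq2's size factors, library totals only, totals without the 5 dominant IDs, a minimum of 10 counts in every library, no filter, depth group as a covariate, each library left out, and CON13 left out with WD15. CON13 left out with WD6 was added after the data were seen. No sequences or coordinates are given.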

Additional observations from a re-analysis of the deposited data

Results flagged for a closer look

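In 4 of the 22 receptor and group combinations examined, 1 library lay far from the other 4 of its group by Dixon's ratio (gap over range above 0.71). Chance flags about 1 in 20 groups if values are normal, and the rate for CPM from few read pairs was not computed. C5AR1 was at 30.4 CPM in WD15, and the gap to the next WD library was 0.809 of the range of the group. ACKR4 was at 0 CPM in WD6, with a gap of 0.866 of the range. CCR7 was at 13.2 CPM in CON13 (gap 0.984) and CCR6 at 9.57 CPM in CON13 (gap 0.755). The values in CON13 rest on 11 and 8 read pairs. The WD15 value of C5AR1 rests on 146 read pairs and is the only one of the 4 in a library where 1 read pair weighs little (0.208 CPM).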

How the results depend on the processing

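No receptor passed the threshold under any alternative, and the lowest adjusted p was 0.0607 (C5AR1, depth group as a covariate, edgeR). Over the 18 alternatives of each, the log2 fold change stayed above 0 for ACKR1 (0.83 to 1.24), C5AR1 (0.52 to 1.46), CXCR4 (0.50 to 1.15) and ACKR4 (0.33 to 0.72). At least 10 counts in every library left no receptor to test. The number of genes past the threshold was 72, and it was 10 with library totals only, 224 with depth group as a covariate, 209 with DESeq2, 33 without CON13 and WD15, and 40 (without CON3) to 102 (without WD6) with 1 library left out. Library totals only moved the median of all genes to 0.16 and turned ACKR3 (0.11), ACKR2 (0.11) and CCR2 (0.10) above 0. ACKR2 was also above 0 without CON13 and WD15 (0.27) and without CON13 and WD6 (0.22). With 1 library left out, ACKR3 ranged from −0.23 to 0.11, ACKR2 from −0.41 to 0.18 and CCR2 from −0.37 to 0.18. The cause was not tested. Another scaling moved no control level by as much as 1 SD, though with library totals only CCR7 was at 1.40 CPM and CCR6 at 1.62 CPM. Without CON13 the mean control level was 0.0820 CPM in place of 2.70 for CCR7 and 0.762 CPM in place of 2.52 for CCR6, and without CON5 it was 0.113 CPM in place of 0.207 for P2RY10. No paired analysis was possible because control and WD libraries share no replicate number. The few read pairs counted outside the dominant gene IDs in CON13 and WD6 limit every value under a few CPM.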
